A study of Mus musculus with 12 samples.

Results

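Osteoclasts are the cells that resorb bone, and 7 genes of their formation and work are described here in mouse spleen: Csf1, Tnfsf11, Tnfrsf11a, Nfatc1, Acp5, Ctsk and Spp1. Members were chosen by symbol, as every probe set whose only gene symbol in the platform annotation is 1 of these 7. This gave 15 of the array's 45101 probe sets, for 6 of the 7 genes and of 18193 genes with such a probe set in all. Spp1, which encodes the matrix protein osteopontin, was not analysed here. A probe set counted as detected where its scaled signal, the array's brightness for that transcript, reached 100 in at least 3 of the 12 arrays. By that rule 13 of the 15 probe sets were detected, with at least 1 for each of the 6 genes.

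The spleens came from 12 BALB/c mice, 1 per array and 3 per group: Il1rn-deficient (ko) mice at 4 months, wild-type (wt) mice at 4 months, ko mice at 1 month and wt mice at 1 month. Il1rn encodes the IL-1 receptor antagonist, a secreted protein that blocks the IL-1 receptor, and BALB/c mice without it are known to develop arthritis. The labels give whole spleen with no sorted cell type, so each signal averages over all its cells, and fewer cells of a type and less RNA per cell cannot be told apart. Il1rn itself (1451798_at) had signals of 40.8, 10.1 and 14.8 in ko mice at 4 months, 188, 161 and 278 in wt mice at 4 months, 23.6, 40.6 and 5.64 in ko mice at 1 month, and 163, 143 and 120.5 in wt mice at 1 month. By this probe set every ko spleen lay below every wt spleen. Of its other 2 probe sets, 1425663_at ran from 34.6 to 78.3 in ko spleens against 81.2 to 208 in wt spleens, and 1423017_a_at overlapped, at 10.5 to 98.0 in ko against 24.3 to 199.8 in wt. The labelled tissue was checked on Tlx1, a transcription factor of splenic stroma, with mean signals of 616, 579, 386 and 475 in ko at 4 months, wt at 4 months, ko at 1 month and wt at 1 month. Cxcl13, the chemokine of B cell follicles, averaged 9943, 12878, 5561 and 9718 in the same order of groups. Array medians lay between 113 and 147, and 52.1% to 59.2% of probe sets reached a signal of 100. Replicate 2 of wt at 4 months stood apart, with a summed signal of 136818 over 8 pancreas genes against 201 to 631 in the other arrays.

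A pair of signals from neighbouring cells turns a myeloid precursor into an osteoclast. Macrophage colony-stimulating factor, the product of Csf1, keeps precursors alive through its receptor CSF1R, and RANKL, the product of Tnfsf11, acts on the receptor RANK, the product of Tnfrsf11a. RANK signalling through NF-kB and calcium raises the transcription factor NFATc1, which turns on effector genes such as Acp5 (tartrate-resistant acid phosphatase) and Ctsk (cathepsin K, the collagen-degrading protease). In spleen the same genes are known for other work: CSF1 maintains macrophages, NFATc1 acts in activated lymphocytes, and tartrate-resistant acid phosphatase is abundant in macrophages that take up red cells. Of 19 resorption genes with a probe set 16 were detected in these spleens, among them Ocstamp (precursor fusion), Itgb3 (an integrin chain), Mmp9 (a gelatinase) and Tcirg1 (a proton pump subunit). The other 3 were not, namely Calcr (calcitonin receptor), Dcstamp (precursor fusion) and Atp6v0d2 (a proton pump subunit). The signals are described gene by gene and not as a measure of osteoclasts.

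Promoters of Csf1, the member with the largest age difference in ko and in wt, and of Acp5 and Ctsk, the effectors under NFATc1 control in osteoclasts, are printed to show where NFAT core motifs lie. Each window runs from 250 bases before to 50 bases after the RefSeq gene start on GRCm38.p6, 5′ to 3′ on the gene's strand. Capitals mark GGAAA, the core of NFAT binding sites, or its reverse complement TTTCC. Csf1 lies on the minus strand at chr3:107760420-107760719. Acp5 lies on the minus strand, and the first of its 3 listed starts is shown, at chr9:22135697-22135996. Ctsk lies on the plus strand at chr3:95498960-95499259.
Csf1: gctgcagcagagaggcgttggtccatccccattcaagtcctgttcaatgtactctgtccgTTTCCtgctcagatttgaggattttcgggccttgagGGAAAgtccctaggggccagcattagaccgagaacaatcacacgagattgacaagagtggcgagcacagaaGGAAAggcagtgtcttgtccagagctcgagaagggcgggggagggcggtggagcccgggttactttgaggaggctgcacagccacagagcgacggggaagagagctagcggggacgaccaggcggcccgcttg
Acp5: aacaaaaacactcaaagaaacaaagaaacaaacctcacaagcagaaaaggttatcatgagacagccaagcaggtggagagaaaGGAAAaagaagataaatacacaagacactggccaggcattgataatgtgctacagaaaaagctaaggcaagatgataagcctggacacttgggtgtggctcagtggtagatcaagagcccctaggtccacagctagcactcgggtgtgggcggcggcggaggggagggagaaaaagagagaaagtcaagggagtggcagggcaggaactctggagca
Ctsk: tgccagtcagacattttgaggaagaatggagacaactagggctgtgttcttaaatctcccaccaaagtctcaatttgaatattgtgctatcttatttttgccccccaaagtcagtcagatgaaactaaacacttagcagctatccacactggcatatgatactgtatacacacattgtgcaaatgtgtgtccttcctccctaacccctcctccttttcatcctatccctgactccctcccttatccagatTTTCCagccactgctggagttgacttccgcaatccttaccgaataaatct
The Csf1 window held 3 matches over both strands, and the Acp5 and Ctsk windows held 1 each. Of all 32851 promoter windows of this length in the same table, 61.3% held at least 1 match, so a match is common. These letters are a description of the windows and not of binding.

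**Figure D1:**
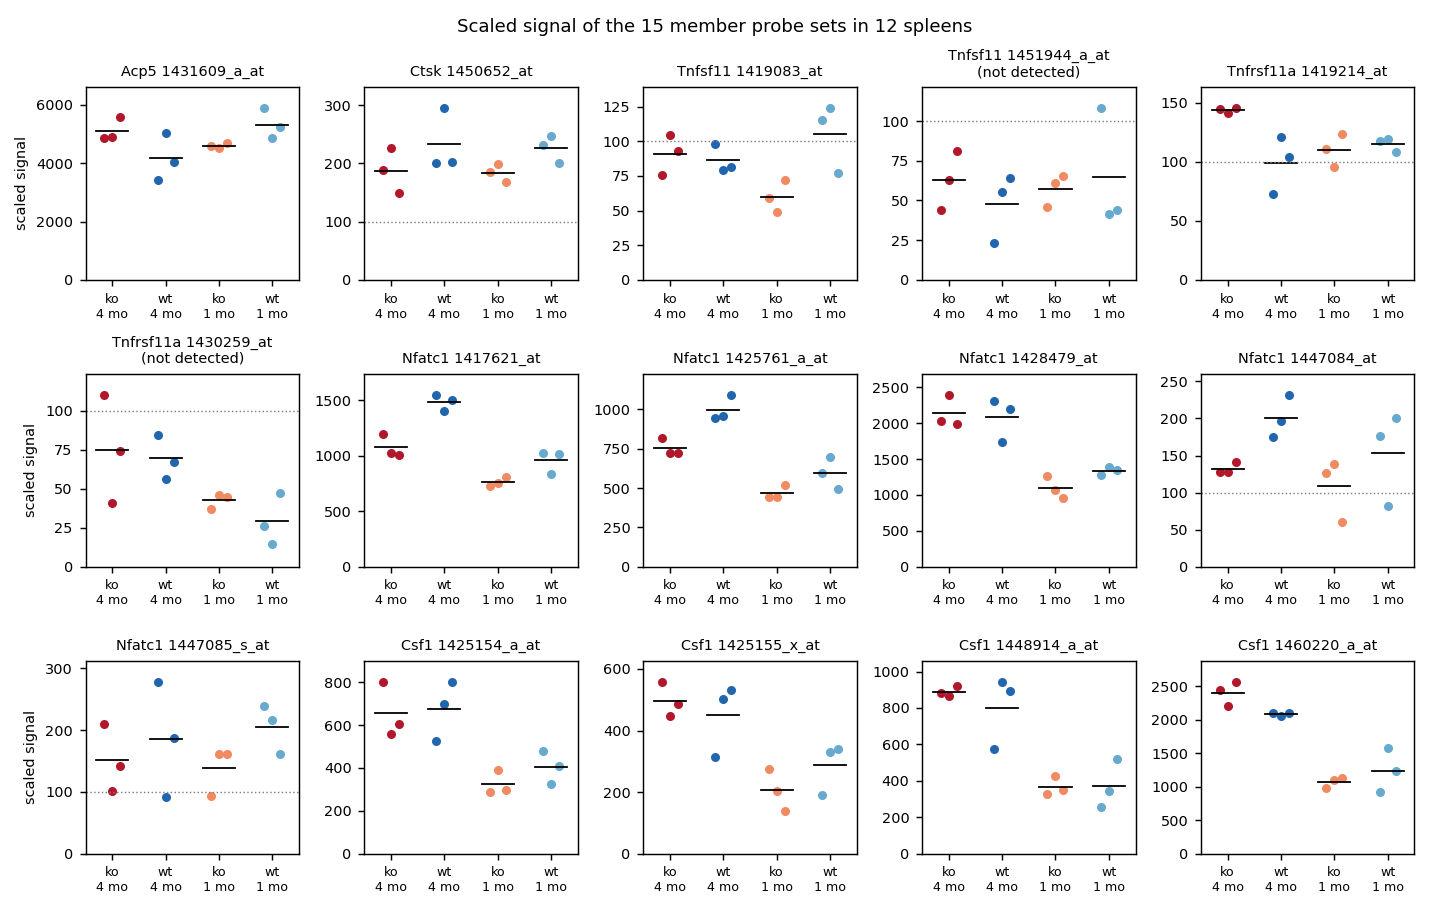
Scaled signal (vertical axis, from 0) of the 15 member probe sets in each of the 12 spleens, with points for mice, bars for group means of 3 mice and, in the dim panels, a dotted line at the detection minimum of 100. The Csf1 panels and the first 3 Nfatc1 panels stand higher at 4 months than at 1 month in both genotypes. The detected panels of Acp5, Ctsk, Tnfsf11 and Tnfrsf11a show no such step. In the undetected Tnfrsf11a panel the means are higher at 4 months in both genotypes, all below the minimum of 100.

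The comparison between ages asked how these genes differed between 4-month and 1-month spleens within each genotype. Csf1 and Nfatc1 were higher at 4 months in both ko and wt mice, by 1.39-fold to 2.31-fold where they passed the test, and the other 4 genes did not pass the test in either genotype. In ko mice 7 of the 13 detected probe sets were higher at 4 months and 0 lower at an adjusted p under 0.05 (limma, Benjamini-Hochberg over all 27041 probe sets tested), where 22.9% of all probe sets were called, 13.6% higher and 9.25% lower. In wt mice 6 of the 13 were higher and 0 lower, against 21.4% of all probe sets called, 11.8% higher and 9.67% lower. The median log2 difference of the 13 was 0.47 in ko and 0.60 in wt, beside 0.10 and 0.09 over all probe sets tested. Most of the 13 are probe sets of Csf1 and Nfatc1, so these counts and medians weigh them more than the other 4 genes. Centring each array on its median moved the median over all probe sets in ko to -0.05.

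Csf1 rose with age, and 4 probe sets report it. Its brightest probe set (1460220_a_at) had signals of 2439, 2197 and 2561 in ko mice at 4 months, 2106, 2055 and 2103 in wt mice at 4 months, 978, 1098 and 1130.0 in ko mice at 1 month, and 915, 1569.9 and 1229 in wt mice at 1 month. All 6 spleens at 4 months lay above all 6 at 1 month. The log2 difference between ages was 1.14 ± 0.17 in ko mice (SE, adjusted p = 0.000256, limma), a 2.21-fold higher signal. In wt mice it was 0.77 ± 0.17 (adjusted p = 0.00376, limma), or 1.71-fold. The means were 2399 ± 186 (SD) in ko at 4 months, 2088 ± 28.9 in wt at 4 months, 1069 ± 80.1 in ko at 1 month and 1238 ± 327 in wt at 1 month (n = 3 each). At each age the genotypes did not differ past the test.

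A further Csf1 probe set, 1448914_a_at, had signals of 881, 864 and 919.6 in ko mice at 4 months, 572, 942 and 891 in wt mice at 4 months, 329, 427 and 349.9 in ko mice at 1 month, and 254, 342 and 519.7 in wt mice at 1 month. Again no 1-month spleen reached the lowest 4-month spleen, a wt mouse. The difference was 1.21 ± 0.23 in ko (adjusted p = 0.00145, limma) and 1.07 ± 0.23 in wt (adjusted p = 0.0035). For 1425154_a_at the signals were 799, 559 and 604 in ko mice at 4 months, 525, 696 and 800.2 in wt mice at 4 months, 288, 390.4 and 299 in ko mice at 1 month, and 480.4, 323 and 410.3 in wt mice at 1 month. The ages did not overlap here either. Its difference was 0.93 ± 0.20 in ko (adjusted p = 0.00381, limma) and 0.69 ± 0.20 in wt (adjusted p = 0.0237). The wt call was lost without replicate 2 of wt at 1 month (adjusted p = 0.0889), and without replicate 2 or 3 of wt at 4 months (0.0616 and 0.0965). It was also lost under quantile normalization (0.0557) and in a fit of the wt arrays alone (0.0625).

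The Csf1 probe set 1425155_x_at, whose suffix marks probes that can match other transcripts, had signals of 557, 448 and 487 in ko mice at 4 months, 315, 501 and 532 in wt mice at 4 months, 275, 202 and 139.9 in ko mice at 1 month, and 191, 329 and 339 in wt mice at 1 month. The ko ages stood apart, while the lowest wt spleen at 4 months lay within the wt range at 1 month. Its difference was 1.19 ± 0.25 in ko (adjusted p = 0.00344, limma) and 0.60 ± 0.25 in wt (adjusted p = 0.104), and the wt value passed without replicate 1 of wt at 4 months (0.82, adjusted p = 0.0422). Over the 12 arrays the log2 signals of the 4 probe sets correlated with Pearson's r of 0.77 to 0.90, a description over arrays that share 2 ages and 2 genotypes.

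Nfatc1, the transcription factor that RANK signalling raises, was also higher at 4 months in 3 of its 5 probe sets. The brightest (1428479_at) had signals of 2036, 2389 and 1990.3 in ko mice at 4 months, 2306, 1735 and 2201 in wt mice at 4 months, 1270.3, 1076 and 957 in ko mice at 1 month, and 1282, 1392 and 1345 in wt mice at 1 month. Every spleen at 4 months lay above every spleen at 1 month. Its log2 difference between ages was 0.94 ± 0.15 in ko (SE, adjusted p = 0.000497, limma), or 1.92-fold, and 0.61 ± 0.15 in wt (adjusted p = 0.00872), or 1.53-fold. Its means were 2138 ± 218 (SD) in ko at 4 months, 2081 ± 304 in wt at 4 months, 1101 ± 158 in ko at 1 month and 1339.5 ± 55.4 in wt at 1 month (n = 3 each), and genotypes of the same age did not differ past the test.

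Nfatc1 1425761_a_at had signals of 816, 724 and 723 in ko mice at 4 months, 943, 955 and 1089.6 in wt mice at 4 months, 441, 441 and 517 in ko mice at 1 month, and 596, 699 and 493 in wt mice at 1 month. These ages did not overlap, and within 4 months all ko spleens lay below all wt spleens. The difference with age was 0.66 ± 0.16 in ko (adjusted p = 0.00653, limma) and 0.72 ± 0.16 in wt (adjusted p = 0.00402). Nfatc1 1417621_at had signals of 1198, 1025 and 1009.9 in ko mice at 4 months, 1546, 1404 and 1506 in wt mice at 4 months, 725, 759.7 and 811 in ko mice at 1 month, and 1028, 838 and 1019 in wt mice at 1 month. Its ages overlapped across genotypes, since 2 wt spleens at 1 month reached the lowest ko spleens at 4 months, but not within a genotype. The difference was 0.47 ± 0.14 in ko (adjusted p = 0.0213, limma) and 0.62 ± 0.14 in wt (adjusted p = 0.00521). The ko call was lost under quantile normalization (adjusted p = 0.0549), under median centring (0.127), and without replicate 1 or 2 of ko at 1 month (0.0761 and 0.0677) or replicate 1 of ko at 4 months (0.108).

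The remaining 2 Nfatc1 probe sets were dim. Nfatc1 1447084_at lay between 60.3 and 231 over the 12 arrays and 1447085_s_at between 91.2 and 278. Neither passed the test in any comparison, with age differences for 1447084_at of 0.28 ± 0.30 in ko (95% interval -0.35 to 0.91) and 0.39 ± 0.30 in wt (-0.24 to 1.02). Those for 1447085_s_at were 0.09 ± 0.32 in ko (-0.60 to 0.77) and -0.21 ± 0.32 in wt (-0.90 to 0.47). Over the 12 arrays the log2 signals of the 3 brighter probe sets correlated with each other at r of 0.76 to 0.89. Nfatc1 1447084_at correlated with these 3 at 0.41 to 0.67, 1447085_s_at with them at 0.045 to 0.27, and the 2 dim ones with each other at 0.017. Whether the probe sets differ in their age difference was not tested.

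**Figure D2:**
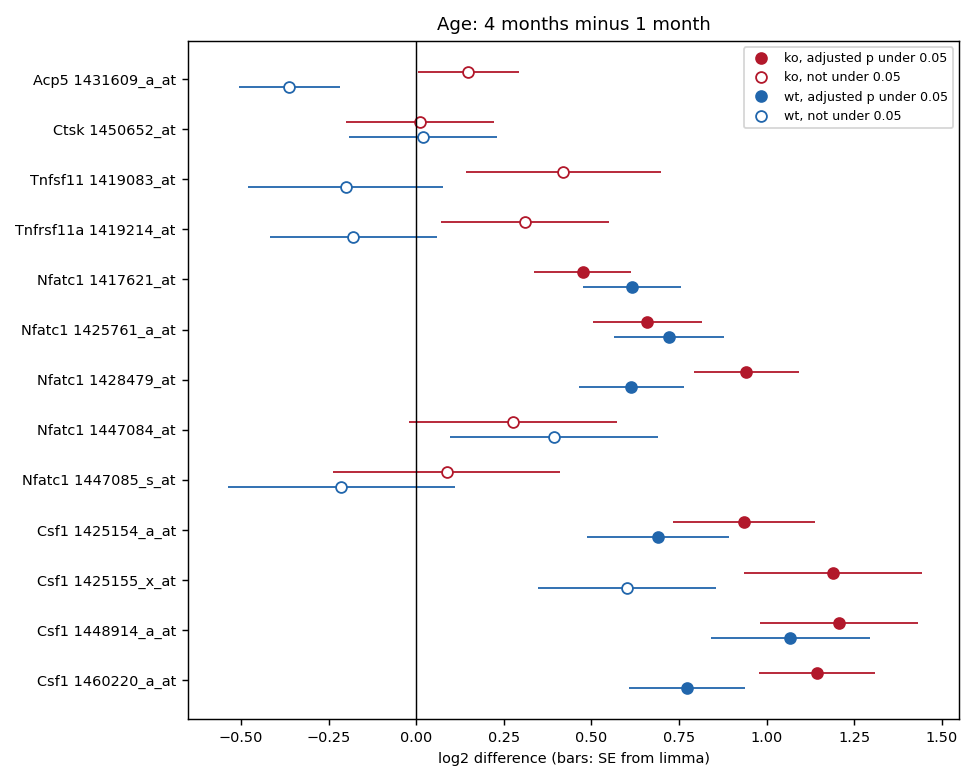
Log2 difference of 4 months minus 1 month (horizontal axis) for the 13 detected probe sets, ko in red above wt in blue, with bars for the SE from limma and filled points for an adjusted p under 0.05. All filled points lie above 0 and belong to Csf1 and Nfatc1, with 7 in ko and 6 in wt.

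Acp5, the effector that encodes tartrate-resistant acid phosphatase, was detected on all 12 arrays and passed the test for age in neither genotype. Its signals (1431609_a_at) were 4859.6, 4895 and 5592 in ko mice at 4 months, 3441, 5037 and 4050.0 in wt mice at 4 months, 4584, 4531 and 4689 in ko mice at 1 month, and 5881, 4867 and 5233 in wt mice at 1 month. In wt the 4-month spleens overlapped the 1-month range through replicate 2, the spleen with pancreas transcripts. The difference with age was 0.15 ± 0.14 in ko (adjusted p = 0.504, limma) and -0.36 ± 0.14 in wt (adjusted p = 0.0852). Without that replicate the wt difference was -0.50 (adjusted p = 0.0235), a fall. Under median centring the ko value was -0.00206. The means were 5115 ± 413 (SD) in ko at 4 months, 4176 ± 806 in wt at 4 months, 4601 ± 80.1 in ko at 1 month and 5327 ± 514 in wt at 1 month (n = 3 each). The highest mean was that of wt at 1 month and the lowest that of wt at 4 months, and no pair tested over all 12 arrays passed.

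Ctsk (1450652_at) was low, with signals of 188, 226 and 149 in ko mice at 4 months, 201, 294 and 202 in wt mice at 4 months, 185, 199.6 and 168 in ko mice at 1 month, and 232, 247 and 200.4 in wt mice at 1 month. All groups overlapped between ages, and the highest spleen was replicate 2 of wt at 4 months. The difference with age was 0.01 ± 0.21 in ko (95% interval -0.44 to 0.46, adjusted p = 0.979, limma) and 0.02 ± 0.21 in wt (-0.43 to 0.47, adjusted p = 0.957). Without replicate 2 of wt at 4 months the wt value was -0.14, and its sign also turned under quantile normalization (-0.09), so no direction is given. The means were 188 ± 38.5 (SD) in ko at 4 months, 233 ± 53.6 in wt at 4 months, 184 ± 15.7 in ko at 1 month and 226 ± 23.6 in wt at 1 month (n = 3 each).

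Tnfsf11, the RANKL gene, was at the edge of detection. Its probe set 1419083_at reached 100 in exactly 3 arrays, with signals of 75.7, 104 and 92.8 in ko mice at 4 months, 98.0, 79.1 and 81.7 in wt mice at 4 months, 59.0, 49.1 and 71.7 in ko mice at 1 month, and 115, 124 and 77.0 in wt mice at 1 month. Those 3 were 1 ko spleen at 4 months and 2 wt spleens at 1 month, and the ko spleens at 1 month were the dimmest. The difference with age was 0.42 ± 0.28 in ko (95% interval -0.17 to 1.01, adjusted p = 0.307, limma) and -0.20 ± 0.28 in wt (-0.79 to 0.39, adjusted p = 0.646). The other Tnfsf11 probe set, 1451944_a_at, was not detected, since its signal ran between 23.3 and 108 and reached 100 in 1 array, a wt spleen at 1 month. Tnfrsf11b, which encodes the RANKL decoy osteoprotegerin, was not detected, with group means of 12.4 in ko at 4 months, 8.28 in wt at 4 months, 7.45 in ko at 1 month and 15.7 in wt at 1 month.

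Tnfrsf11a, the RANK gene, was dim but detected by 1419214_at, with signals of 145, 141 and 145 in ko mice at 4 months, 72.6, 121 and 104 in wt mice at 4 months, 111, 95.9 and 124 in ko mice at 1 month, and 117, 119 and 108 in wt mice at 1 month. The 3 ko spleens at 4 months were the 3 highest of the 12. The difference with age was 0.31 ± 0.24 in ko (95% interval -0.20 to 0.82, adjusted p = 0.385, limma) and -0.18 ± 0.24 in wt (-0.69 to 0.33, adjusted p = 0.634). The second probe set, 1430259_at, was not detected, with signals of 14.4 to 110 and 1 array at 100 or more, a ko spleen at 4 months. Its means were 74.8 in ko and 69.4 in wt at 4 months, against 42.5 and 29.3 at 1 month, and it was not tested. No age difference of the ligand or the receptor passed the test, and the intervals were wide. In ko the detected probe set of each lay higher at 4 months without overlap, as did 28.3% of all probe sets.

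The comparison between genotypes asked how spleens without Il1rn differed from wt spleens of the same age. Nfatc1 was lower in ko spleens over both ages in 1 probe set, and no other member passed the test at either age. Called at an adjusted p under 0.05 were 0 of 13 probe sets at 4 months (limma), where 2.3% of all were called, with 2 members at an unadjusted p under 0.05. At 1 month 0 of 13 were called (limma), where 0.444% of all were, with 1 member at an unadjusted p under 0.05. Over both ages 1 of 13 was called, lower in ko, where 5.39% of all probe sets were called and 2.56% were lower. The median log2 difference of the member probe sets, most of them of Csf1 and Nfatc1, was 0.04 at 4 months and -0.28 at 1 month. Over all probe sets it was -0.01 and -0.04. Centring arrays on their median moved the median over all probe sets at 1 month to 0.12. The comparisons between genotypes and those between ages use the same 12 arrays.

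The called probe set was Nfatc1 1417621_at. At 4 months its 3 ko spleens (1010 to 1198) lay below its 3 wt spleens (1404 to 1546), and at 1 month they lay at 725 to 811 in ko against 838 to 1028 in wt. The log2 difference of ko minus wt was -0.45 ± 0.14 at 4 months (SE, adjusted p = 0.105, limma) and -0.31 ± 0.14 at 1 month (adjusted p = 0.29). Over both ages it was -0.38 ± 0.10 (adjusted p = 0.0353, limma), a 1.3-fold lower signal in ko spleens. This call was lost under median centring (-0.29, adjusted p = 0.102). It was also lost, at adjusted p values of 0.0617 to 0.096, without any 1 of 8 arrays: replicates 1, 2 or 3 of ko at 1 month, 2 or 3 of ko at 4 months, 1 of wt at 1 month, or 1 or 3 of wt at 4 months.

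The other 4 Nfatc1 probe sets were also lower in ko over both ages, but none of them passed the test. For 1425761_a_at, ko minus wt over both ages was -0.35 ± 0.11 (adjusted p = 0.0716, limma), which passed without replicate 3 of wt at 1 month (-0.42, adjusted p = 0.025). For the brightest, 1428479_at, it was -0.12 ± 0.11 (95% interval -0.34 to 0.11, adjusted p = 0.541). The dim probe sets gave -0.44 ± 0.21 (1447084_at, adjusted p = 0.226) and -0.34 ± 0.23 (1447085_s_at, adjusted p = 0.396).

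Csf1 showed no called difference between genotypes. For 1460220_a_at, ko minus wt was 0.19 ± 0.17 at 4 months (95% interval -0.16 to 0.54, adjusted p = 0.609, limma) and -0.18 ± 0.17 at 1 month (-0.53 to 0.17, adjusted p = 0.627). At 4 months its ko spleens lay above its wt spleens, the lowest ko at 2197 and the highest wt at 2106. The other 3 Csf1 probe sets overlapped between genotypes at both ages, with values of -0.04 to 0.17 at 4 months and -0.43 to 0.03 at 1 month.

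Among the effectors, Acp5 was 0.31 ± 0.14 at 4 months (adjusted p = 0.318, limma) and -0.21 ± 0.14 at 1 month (adjusted p = 0.502). At 1 month the 3 ko spleens (4531 to 4689) lay below the 3 wt spleens (4867 to 5881), and at 4 months the genotypes overlapped. How far the genotype effect differed between the ages was 0.51 ± 0.20 for Acp5 (unadjusted p = 0.0232, adjusted p = 0.5, limma), the only member with an unadjusted p under 0.05. For that difference 0 of 13 members passed after adjustment, where 0.0481% of all probe sets did. Ctsk was -0.26 ± 0.21 at 4 months (adjusted p = 0.584, limma) and -0.25 ± 0.21 at 1 month (adjusted p = 0.577), and without replicate 2 of wt at 4 months the 4-month value was -0.10.

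For the ligand Tnfsf11 (1419083_at), ko minus wt was 0.05 ± 0.28 at 4 months (adjusted p = 0.951, limma) and -0.57 ± 0.28 at 1 month (adjusted p = 0.333). The 1-month ko spleens reached 71.7 at most, against at least 77 in the wt spleens, all but 2 of these 6 below the detection minimum of 100. For the receptor Tnfrsf11a (1419214_at) the difference was 0.44 ± 0.24 at 4 months (adjusted p = 0.393, limma), with no overlap between genotypes, and -0.05 ± 0.24 at 1 month (adjusted p = 0.94). The 1-month sign turned under quantile normalization (0.13) and median centring (0.11).

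Groups that did not overlap were common over the array. At 4 months 5 of 13 members had no overlap between genotypes, 2 higher and 3 lower in ko, where 22.3% of all probe sets did, 10.9% higher and 11.4% lower. At 1 month 6 of 13 had none, all lower in ko, where 19.9% of all probe sets had none and 11.9% were lower. Between ages 10 of 13 did not overlap in ko and 6 of 13 in wt, all higher at 4 months, where 46.6% and 31.6% of all probe sets did not overlap and 28.3% and 18.4% were higher.

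**Figure D3:**
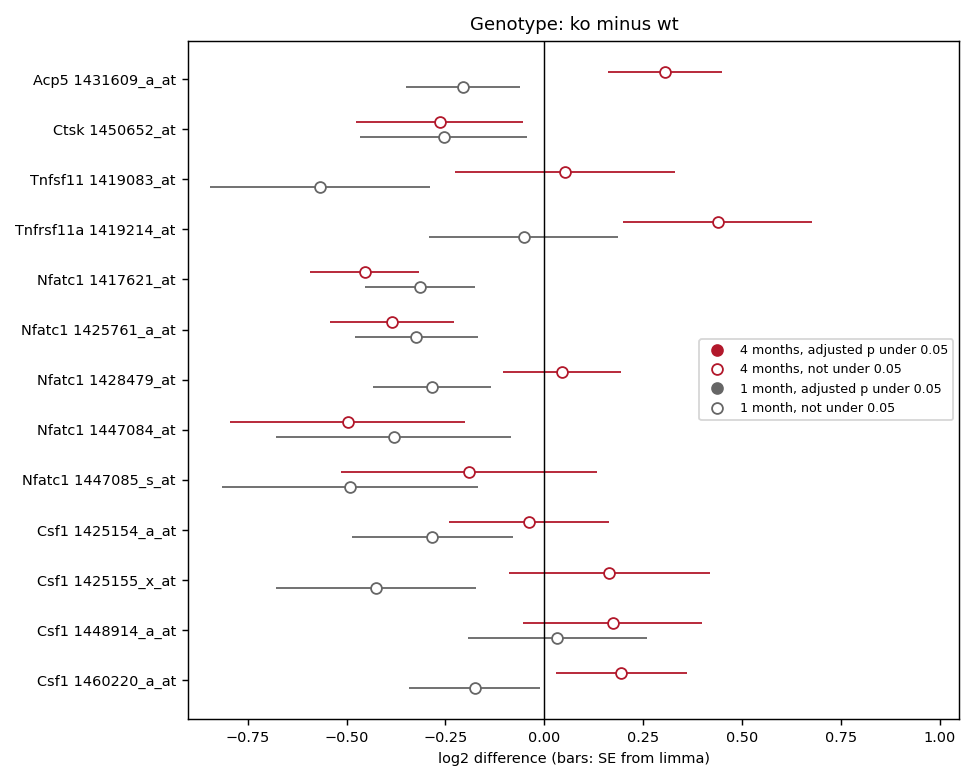
Log2 difference of ko minus wt (horizontal axis) for the 13 detected probe sets, 4 months in red above 1 month in grey, with bars for the SE from limma. No point is filled because no adjusted p was under 0.05 at either age, and the values run between -0.57 and 0.44.

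The 12 arrays fell into 6 with a highest deposited signal under 45000 (all 3 of ko at 1 month, replicate 2 of ko at 4 months, and replicate 3 of wt at each age) and 6 above it. Neither the labels nor the file say what this split is. Within the low set, Csf1 1460220_a_at differed with age by 1.02 in ko (1 array against 3) and by 0.76 in wt (1 against 1), and within the high set by 0.78 in wt (2 against 2). Nfatc1 1428479_at gave 1.10 in ko and 0.70 in wt within the low set, and 0.57 in wt within the high set. These age differences within sets had the direction seen over all arrays, though all 3 ko arrays at 1 month lay in the low set, so none could be had for ko in the high set. The genotype difference of Nfatc1 1417621_at was -0.54 and -0.41 within the low and high sets at 4 months and -0.40 within the low set at 1 month, and with the set as a block its call was lost (adjusted p = 0.0556, limma).

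Other genes of the pathway were read from 4 lists, each gene by its brightest probe set. Osteoclast signalling genes were higher at 4 months in both genotypes, with 13 of 24 tested genes higher and 0 lower in ko and 10 higher and 0 lower in wt. Over all 12339 genes, 15.7% were called higher and 10.9% lower in ko, and 12.6% higher and 11.5% lower in wt. The list's median log2 difference was 0.65 in ko and 0.45 in wt, beside 0.09 and 0.08 over all genes. By the probe set with the smallest p, the leading genes in ko were Csf1r, the receptor of CSF1 (1.31 ± 0.18, adjusted p = 0.000163, limma), Prdm1, a transcriptional repressor of osteoclast inhibitors (1.19 ± 0.17), Blnk, an adaptor below immune receptors (1.01 ± 0.16), and Ppp3ca, a calcineurin subunit that activates NFAT (0.91 ± 0.15). In wt they were Plcg2, a phospholipase of the same receptors (0.77 ± 0.12, adjusted p = 0.000389, limma), Syk, a tyrosine kinase (1.11 ± 0.19), Nfkb2, an NF-kB subunit below RANK (1.20 ± 0.21), and Ppp3ca (0.80 ± 0.15). In each genotype Ppp3ca was called by 1 of 3 probe sets and not by its brightest, which gave 0.13 in ko (adjusted p = 0.661, limma). Under median centring 10 of 24 were higher in ko and 10 in wt, and without replicate 2 of wt at 4 months 9 were higher in wt.

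Genes of the resorption machinery went the same way in part. In ko 7 of 16 tested genes were higher at 4 months and 1 lower, and in wt 7 were higher and 1 lower. The leading genes in ko were Acp2, a lysosomal acid phosphatase (1.29 ± 0.16, adjusted p = 0.000102, limma), Cst3, the protease inhibitor cystatin C (0.92 ± 0.12), Snx10, a sorting nexin (0.82 ± 0.17), and Mmp14, a membrane metalloprotease (0.86 ± 0.20). In wt they were Plekhm1, a lysosome trafficking adaptor (1.03 ± 0.17, adjusted p = 0.00045, limma), Acp2 (0.95 ± 0.16), Snx10 (0.92 ± 0.17) and Adam8, a membrane protease (0.73 ± 0.16). Snx10 was called by 1 of 2 probe sets in each genotype, and Mmp14 by 2 of 3 in ko. The genes that fell were Mmp9, a gelatinase also stored in neutrophil granules, in ko (-0.88, adjusted p = 0.015, limma), and Car2, a carbonic anhydrase abundant in red cells, in wt (-0.82, adjusted p = 0.0213). They were named after their values were seen. Acp2, Plekhm1 and Tcirg1, a proton pump subunit, are genes of lysosomes in many cell types. Under median centring the counts of higher genes were 4 in ko and 5 in wt.

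The osteoblast list was largely below detection: 10 of its 21 genes with a probe set were tested, and Ibsp (bone sialoprotein), Dmp1 and Sost, genes of bone-forming cells and osteocytes, were not detected. By brightest probe set 1 gene was higher at 4 months and 0 lower in ko, and 1 was higher and 1 lower in wt, where the lower call, Sparc, was lost under median centring and quantile normalization. Of the 10 tested, that is 10% higher in ko, and 10% higher and 10% lower in wt. No share was above that of all genes. Those were 15.7% higher and 10.9% lower in ko, and 12.6% and 11.5% in wt. Bmp4, a bone morphogenetic protein, rose with age in both genotypes (1.75 ± 0.32 in ko, adjusted p = 0.00128, and 1.30 ± 0.32 in wt, adjusted p = 0.00945, limma). Its mean signals at 1 month were 75.5 in ko and 77.6 in wt, both below the detection minimum. At 4 months they were 328 in ko and 225 in wt, so the size of the rise rests on dim 1-month signals. Among further probe sets, Col1a1, a collagen I chain, fell by 1 of 2 in ko (-1.21 ± 0.28) and in wt (-0.89 ± 0.28). Sparc, a matrix protein gene, fell by 1 of 3 in ko (-0.59 ± 0.15). In wt Sparc fell by 2 of 3, where -0.48 ± 0.15 belongs to the brightest, whose call is the one already given as lost. Col1a2 fell in wt by 1 of 2 (-1.03 ± 0.23), and Sfrp1, a secreted Wnt inhibitor, rose in ko by 2 of 5 (1.68 ± 0.43). The Sfrp1 value came from a probe set with a ko mean of 16.9 at 1 month, below that minimum, and 126 at 4 months. By brightest probe set, 3 of 8 osteopontin receptor genes (37.5%) were higher at 4 months in ko and 2 (25%) in wt. Lower were 0 in each genotype, and of all genes 15.7% were higher in ko and 12.6% in wt. Under median centring 2 of the 8 receptor genes were higher in ko and 0 in wt. By the probe set with the smallest p the leading ones in ko were the integrin genes Itga9 (1.32 ± 0.17), Itgb5 (0.80 ± 0.14) and Itgb3 (1.19 ± 0.31, by 1 of 2 probe sets) with Cd44 (0.87 ± 0.22, by 1 of 3 and not the brightest). In wt they were Cd44 (0.59 ± 0.14, by 2 of 3) and Itgav (0.54 ± 0.18, by 1 of 2).

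**Figure D4:**
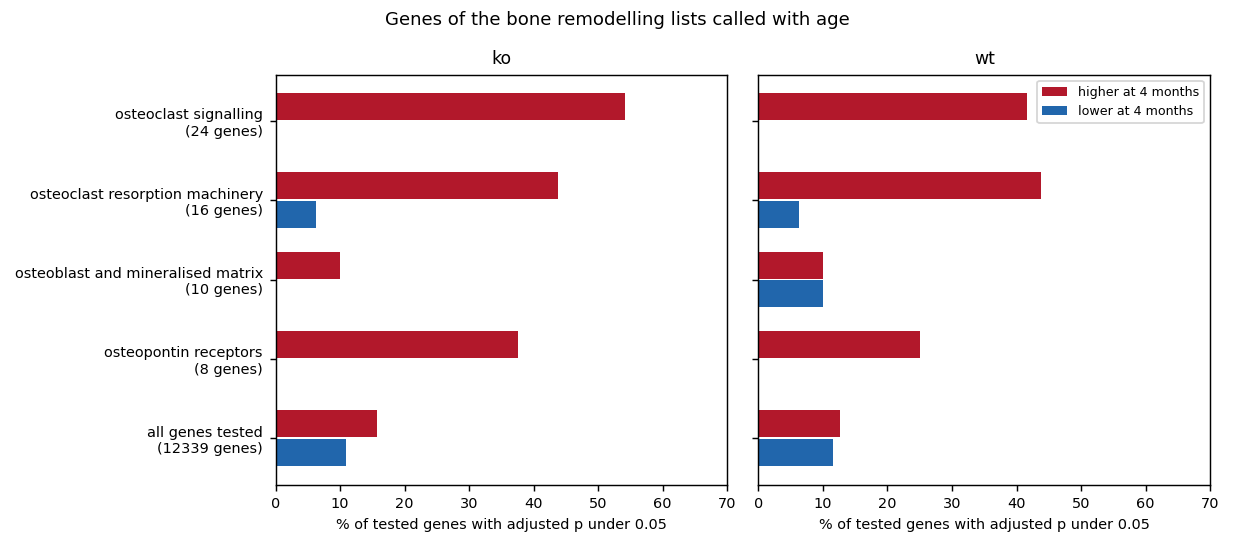
Share of tested genes with an adjusted p under 0.05 (horizontal axis, %), higher at 4 months in red and lower in blue, for 4 lists and for all genes, in ko (left) and wt (right). Osteoclast signalling reached 54.2% higher in ko and 41.7% in wt, and resorption machinery 43.8% in each, beside 15.7% and 12.6% of all genes.

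Between genotypes these lists held few calls, at most 3 genes each by brightest probe set. Over both ages Tec (-0.45 ± 0.10, adjusted p = 0.0172, limma) and Blnk (-0.45 ± 0.11), a kinase and an adaptor of immune receptors, were lower in ko, and Jdp2, an AP-1 repressor, was higher (0.54 ± 0.15). The Tec and Blnk calls were lost under median centring, and the Jdp2 call without replicate 2 of wt at 4 months. Syk was lower in ko by 1 of 4 probe sets (-0.73 ± 0.12 over both ages and -0.78 ± 0.17 at 4 months), not its brightest. Mmp9 was higher in ko (1.15 ± 0.17 over both ages, adjusted p = 0.00163, and 1.45 ± 0.24 at 1 month, adjusted p = 0.00986, limma). The cathepsin gene Ctsl (-0.49 ± 0.10), Col1a2 (-0.33 ± 0.09, by 1 of 2 probe sets) and the integrin gene Itga8 (-0.56 ± 0.12) were lower in ko over both ages. Under median centring the Col1a2 and Itga8 calls were lost, and the Col1a2 call was also lost without replicate 2 of wt at 4 months. Of all genes, 3.89% were called higher and 2.45% lower over both ages, 2.48% and 0.478% at 4 months, and 0.365% and 0.251% at 1 month.

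Cell type markers moved with age and genotype beside these genes, and their part in the results was not tested. Over all 12339 genes, 15.7% were called higher and 10.9% lower with age in ko, and 12.6% and 11.5% in wt. For ko against wt the shares higher and lower were 3.89% and 2.45% over both ages. They were 2.48% and 0.478% at 4 months, and 0.365% and 0.251% at 1 month. Of 15 tested markers of monocytes and macrophages, 11 were higher at 4 months and 0 lower in ko, and 8 higher and 0 lower in wt. Their summed signal over 16 probe sets was 61569 to 63091 in ko at 4 months, 58941 to 63416 in wt at 4 months, 36433 to 38998 in ko at 1 month and 41645 to 48026 in wt at 1 month, and Siglec1 was the marker below detection. Of 6 B cell markers 5 were higher at 4 months in each genotype, and their sum was 33222 to 41849.6, 41603 to 49329.9, 18436 to 21656 and 25207 to 28047 in the same order of groups. Over both ages 3 of 6 were lower in ko and 0 higher. Of 7 T cell markers 7 were higher at 4 months in ko and 3 in wt. All 10 neutrophil markers fell with age in both genotypes and were higher in ko at both ages, with sums of 52173 to 69489.8, 9711 to 14649, 128106 to 158432 and 44356 to 54655. In ko and then in wt, markers higher at 4 months numbered 5 and 3 of 6 for dendritic cells, 2 and 2 of 4 for NK cells, 4 and 1 of 5 for endothelial cells, and 4 and 2 of 8 for stromal cells, where 1 was lower in each genotype. Lower at 4 months were 3 and 5 of 5 erythroid markers, and 0 and 5 of 6 megakaryocyte markers. At 4 months 4 of 5 erythroid and 6 of 6 megakaryocyte markers were higher in ko than in wt.

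The genes whose log2 signal over the 12 arrays was most like a member's, by Pearson's r, differed from member to member. For Csf1 (1460220_a_at) they were Tlr7 (0.99), Psmb9 (0.98) and Slco2b1 (0.97), and for Nfatc1 (1428479_at) Klrd1 (0.99), Nr1d2 (0.98) and Skap2 (0.98). For Tnfsf11 they were Psd3 (0.93), Vps36 (0.91) and Gmeb2 (0.90), and for Tnfrsf11a Slc2a3 (0.91), Lhpp (0.90) and Pex2 (0.89). For Acp5 they were Plpp1 (0.92), Rnf14 (0.90) and Nphs1 (0.89). For Ctsk they were Edaradd (0.85), Dctn4 (0.84) and Ctrc (0.81), which encodes a pancreatic protease. The arrays share 2 ages and 2 genotypes, so these values describe the pattern over 12 arrays and carry no test.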

How the data were processed

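Total RNA of whole spleen was extracted with Trizol, labelled with biotin and hybridised to 1 single-colour Affymetrix array per mouse, per the labels' protocols. The deposited values are linear intensity signals that the authors computed with MAS5, per the labels, whose version is not given in the sources used here. On each array the deposited mean signal after trimming 2% at either end was 500, so arrays were already scaled. Each array was set to that trimmed mean of 500 again, which left its values almost unchanged. Array data give no read depth, and the number of arrays limits the precision.

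Gene names came from the platform annotation, in which 34945 probe sets had 1 symbol, 932 several and 9160 none, and 64 were controls. Of the 7 member symbols 6 matched. Promoter windows came from RefSeq on GRCm38.p6. Probe sets at 100 or more in at least 3 arrays (27041) were tested on log2(signal + 32), so differences of dim probe sets are understated, with limma 3.58.1 in R 4.3.3. One model held all 4 groups (8 residual degrees of freedom, 8.27 prior) with an intensity trend in the prior and Benjamini-Hochberg adjustment over all tested probe sets. A call is an adjusted p under 0.05. The model was tested on simulated data.

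All members were reported. From each of 4 pathway lists up to 4 genes with the smallest p among called ones were named per comparison, and for the member's highest probe set the 3 genes with the highest Pearson's r. Members and lists, which include 11 marker lists, were chosen with earlier results of these data known. Alternatives were other normalizations, offsets, filters, a prior without trend, only the compared arrays, blocks for replicate number and array set, and leaving out each array.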

Additional observations from a re-analysis of the deposited data

How the results depend on the processing

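With 3 mice a group, low signals for Tnfsf11 and Tnfrsf11a, and 1 array per mouse, small differences were not detectable, and not every probe set of Csf1 and Nfatc1 passed the test. Members called with age numbered 6 to 7 in ko and 5 to 7 in wt over the alternatives run, all higher at 4 months except Acp5 in wt without replicate 2 of wt at 4 months. At either age and for the difference between ages, 0 were called between genotypes under every alternative run. Over both ages the count was 1, but 0 under median centring, 0 without an intensity trend, 0 with the array set as a block and 0 to 2 when 1 array was left out, and the cause was not tested. Nfatc1 1417621_at made that call, at adjusted p of 0.102, 0.0658 and 0.0556 under these 3 settings (limma). With the replicate number as a block the counts were 0 at 1 month, 0 at 4 months, 1 over both ages, 0 for the difference between ages, 6 in wt and 7 in ko, so the replicate block changed no count. Same-numbered arrays shared little deviation from their group means (r of -0.201 to 0.211 over probe sets). No pairing of mice by number was seen, though these values cannot exclude one. A filter at a signal of 200 kept 10 of the 13 probe sets.

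Calls higher and lower over all tested probe sets shifted with scaling: for age in ko 3685 and 2502, against 2013 and 3488 under median centring; over both ages 766 and 691, against 1143 and 257; at 1 month 55 and 65, against 67 and 18 under median centring and 55 and 39 under quantile normalization; and for the difference between ages 8 and 5, against 4 and 5 under median centring.

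Among single probe set values under alternatives, 1672 kept direction and side of the threshold, 21 lost a call, 3 gained 1 and 54 changed sign, the last never with a call. Signs turned under quantile normalization for Tnfrsf11a at 1 month (0.13), Ctsk in wt (-0.088) and in ko (-0.17) with age, and Nfatc1 1447085_s_at in ko (-0.059). They turned under median centring for Tnfrsf11a at 1 month (0.11), and with age in ko for Acp5 (-0.00206), Ctsk (-0.14) and Nfatc1 1447085_s_at (-0.064). With the array set as a block they turned for Csf1 1448914_a_at at 1 month (-0.18) and over both ages (-0.00402), Nfatc1 1447084_at in the difference between ages (0.065), and with age in ko for Ctsk (-0.00925) and Nfatc1 1447085_s_at (-0.11).

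Leaving out 1 array gave ranges across 0 for several uncalled differences, first between genotypes and then with age. At 1 month these were Tnfrsf11a 1419214_at (-0.12 to 0.022), Csf1 1448914_a_at (-0.19 to 0.28) and Csf1 1460220_a_at (-0.37 to 0.00746). At 4 months they were Tnfsf11 1419083_at (-0.025 to 0.15), Nfatc1 1428479_at (-0.079 to 0.12), Nfatc1 1447085_s_at (-0.55 to 0.11), Csf1 1425154_a_at (-0.20 to 0.091), Csf1 1425155_x_at (-0.056 to 0.29) and Csf1 1448914_a_at (-0.044 to 0.30). Over both ages they were Acp5 (-0.015 to 0.12), Csf1 1448914_a_at (-0.00846 to 0.23) and Csf1 1460220_a_at (-0.088 to 0.10). For the difference between ages they were Ctsk (-0.13 to 0.15), Nfatc1 1425761_a_at (-0.18 to 0.061), Nfatc1 1447084_at (-0.39 to 0.20), Nfatc1 1447085_s_at (-0.059 to 0.61) and Csf1 1448914_a_at (-0.11 to 0.36). With age in ko they were Ctsk (-0.11 to 0.14), Nfatc1 1447084_at (-0.00133 to 0.44) and Nfatc1 1447085_s_at (-0.14 to 0.30), and in wt Ctsk (-0.14 to 0.10) and Nfatc1 1447085_s_at (-0.52 to 0.15).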
